A study of Sus scrofa with 24 samples.

Results

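The border zone is the heart muscle that adjoins a healed infarct, and the comparison described here set it against normal myocardium of the same animal. Of 24 arrays from 9 pigs, 12 arrays belonged to the 6 pigs (10, 11, 14, 15, 16 and 18) whose labels give both a border zone and a normal region sample, and each pig's normal region value was subtracted from its border zone value. The choice used the labelled pig and region and no measured value. All animals were domestic pigs with a reperfused infarct made without opening the chest, with 250 mg aspirin and 300 mg clopidogrel by mouth the day before it and 100 mg aspirin and 75 mg clopidogrel a day afterwards. Pigs were randomised 1 month after the infarct to injections into the heart muscle of either the secretome of apoptotic peripheral mononuclear cells or plain medium as placebo, and tissue was taken 1 month later. Pigs 11, 14, 15 and 16 received secretome, and pigs 10 and 18 are labelled as not treated, which the study's design makes the medium arm. Per the labels' protocols the border zone was also the injected zone, so in both arms the border zone had been injected. No uninfarcted pig was among the samples, so the normal region is the remote muscle of an infarcted heart, and each sample is 1 tissue piece that mixes cell types.

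In a healing infarct, fibroblasts at the edge of the scar are known to become activated, to lay down collagens and matricellular proteins, and later to take on genes of tendon and cartilage. The cardiomyocytes that survive there are known to lose connexin 43, the protein of their electrical junctions, to make natriuretic peptides under wall stress, and to move away from mitochondrial fatty acid oxidation. Macrophages clear dead muscle and signal to fibroblasts throughout this repair.

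No transcript passed the paired test. Of 32439 probes above background on at least 3 of the 12 arrays, 0 were called higher (0%) and 0 lower (0%) in the border zone at a Benjamini-Hochberg adjusted p under 0.05 (limma, pig as a block), and the smallest adjusted p was 0.359. Without adjustment 1735 probes (5.35%) were higher and 2762 (8.51%) lower at p under 0.05. All 6 pigs agreed in direction on 637 probes higher (1.96%) and 1920 lower (5.92%), and the 6 border values lay wholly above the 6 normal ones for 9 probes (0.0277%) and wholly below them for 11 (0.0339%). Among the 5911 named genes, for which the brightest kept probe gave the value, 350 (5.92%) were higher and 524 (8.86%) lower at an unadjusted p under 0.05, and 126 (2.13%) and 412 (6.97%) had the same sign in every pig. A fit of all 24 arrays with pig as a random block and both arms weighted equally, which also compares between pigs, called 160 probes (0.493%) higher and 4 (0.0123%) lower, among them PTN, POSTN, TNC, FN1, COL11A1, COMP, TNMD and IGF1, all higher. Another fit of the 24 arrays, with pig as a fixed block and without that weighting, called 1 and 0. All values below are therefore descriptions of 6 pigs, and a gene given with no p of its own had an adjusted p of 0.359.

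The labels say that samples are separate pigs and regions, and the files show 2 scan series, with pigs 16 and 18 in the first and the other 4 in the second, so both arrays of every pair lay in the same series. The 2 arrays of pig 11 and those of pig 15 lay on different slides, and each of the other 4 pigs had both on 1 slide. A fit with slide as a further term takes its region difference from those 4 pigs only. Its counts therefore equal those of the 4 pigs alone by design and are no separate check. Both called 0 probes, with 2173 higher and 2315 lower at an unadjusted p under 0.05. Fitted within scan series 1 alone, 2 pigs gave 863 probes (2.66%) higher and 115 (0.355%) lower, and within scan series 2 alone, 4 pigs gave 0 and 0, with 553 and 889 at an unadjusted p under 0.05. Between 63.8% and 72.4% of probes were well above background on the normal region arrays and between 66.5% and 74.8% on the border zone arrays. This share was higher in the border zone in 6 of 6 pigs, by 2.13 ± 1.19 percentage points (SD, n = 6, exact sign-flip permutation test, two-sided, p = 0.03125, the smallest that 6 pairs allow). The array's 75th percentile, to which each array was scaled, was also higher in the border zone in 6 of 6 pigs.

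Cardiomyocyte markers fitted the label of heart muscle in both regions. All 10 measured cardiomyocyte markers of 13 were well above background on all 12 arrays, and their summed level ran from 6401 to 10961 times the array's 75th percentile in the normal region and from 3626 to 10663 in the border zone, lower in the border zone in 5 of 6 pigs. The 8 measured fibroblast markers of 10 summed to between 111 and 203 in the normal region and between 103 and 382 in the border zone, higher in 4 of 6 pigs. The 6 endothelial markers of 10 summed lower in the border zone in 6 of 6 pigs, with 36.7 to 90.5 in the normal region and 32.3 to 86.3 in the border zone. For the 9 macrophage markers of 11 the sums were 41.1 to 78.6 and 38.2 to 90.9, higher in 4 of 6 pigs. In pigs 11 and 14 the border zone's fibroblast sum was 0.886 and 0.956 times the normal region's. The macrophage sum was 0.769 and 0.841 times the normal region's in these pigs. Sums of smooth muscle, atrial, T cell, B cell, adipocyte, skeletal muscle and Schwann cell markers were higher in 2, 3, 3, 4, 1, 1 and 5 of 6 pigs, the B cell sum being 1 gene. The sum of the 3 measured mesothelial markers was higher in 6 of 6 pigs. In bulk tissue, fewer cells of a type and less RNA per cell cannot be told apart, and the part of these marker levels in the results below was not tested.

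Probe sequences are shown for 6 genes on which the account turns, because 4 of them were read from 1 probe each, so that this sequence alone carries the value. COL1A1 and FMOD stand for the collagen scar, COMP and TNMD for its cartilage- and tendon-like genes, GJA1 for the electrical junctions and COX7C for the respiratory chain. COMP was read from the brighter of 2 probes and COX7C from the brightest of 3. Each is the 60-base array probe as the scanner files give it, in lower case, with no base singled out.
COL1A1: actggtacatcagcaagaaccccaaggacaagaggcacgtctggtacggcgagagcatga
FMOD: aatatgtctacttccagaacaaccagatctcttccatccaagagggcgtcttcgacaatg
COMP: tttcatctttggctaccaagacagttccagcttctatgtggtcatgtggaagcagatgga
TNMD: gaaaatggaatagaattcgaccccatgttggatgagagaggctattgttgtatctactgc
GJA1: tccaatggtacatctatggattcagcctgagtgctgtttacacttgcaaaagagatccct
COX7C: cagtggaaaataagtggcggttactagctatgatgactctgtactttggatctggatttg

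Pigs differed far more from each other than the averages show. The standard deviation of the border minus normal difference over all kept probes was 0.42 on the log2 scale in pig 11, 0.44 in pig 14 and 0.47 in pig 15, and 0.63, 0.64 and 0.79 in pigs 16, 10 and 18. Past a 2-fold difference, pig 18 had 2705 probes higher and 2174 lower in its border zone, and pig 14 had 454 and 717. Pig 11 had 574 and 762, pig 15 had 1079 and 549, pig 16 had 1787 and 623, and pig 10 had 2138 and 796. The difference profiles of pigs 16 and 18 had r = 0.71 over the 32439 probes, and pig 10 had 0.41 with pig 16 and 0.39 with pig 18. Pigs 11 and 14 had values between -0.10 and 0.03 with every other pig. Those r values run across probes within pigs, probes are not independent replicates, and pigs 16 and 18 also share a scan series. So the border zone samples of pigs 10, 16 and 18, and less so 15, stood apart from their normal regions in a like way. Those of pigs 11 and 14 did not share that direction. They had fewer probes 2-fold higher than pigs 15 and 16, but more probes 2-fold lower.

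**Figure D1:**
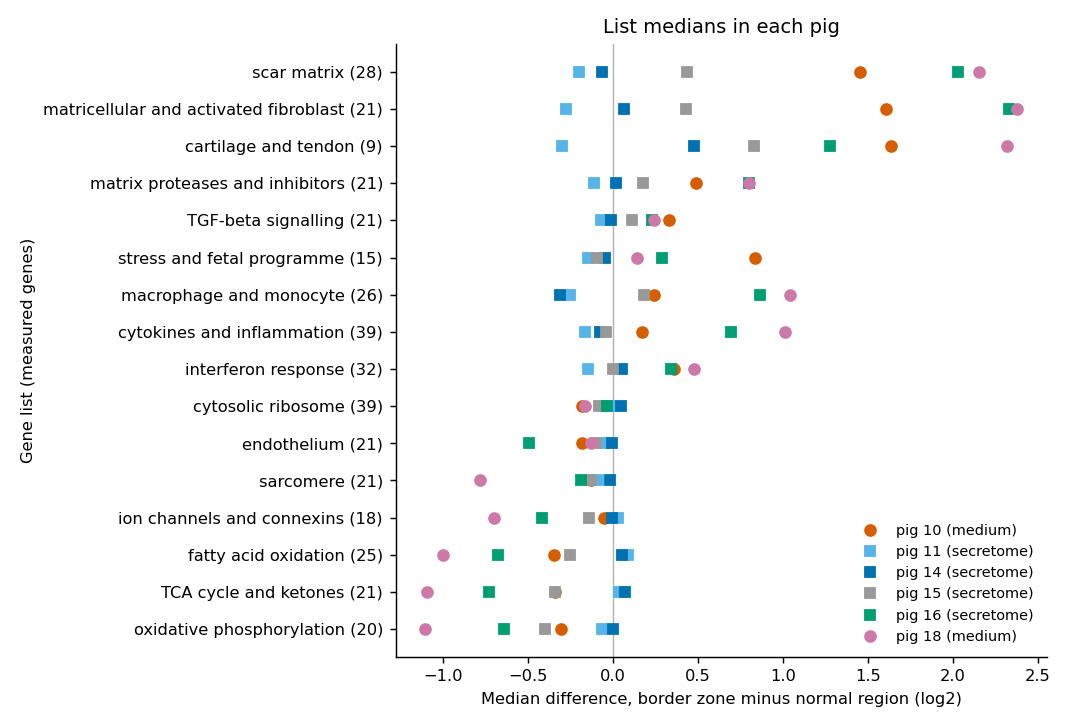
Median border zone minus normal region difference (log2, x axis) over the measured genes of 16 gene lists (y axis), with 1 point per pig. Circles are the 2 medium pigs and squares the 4 secretome pigs. For the scar matrix list pigs 10, 16 and 18 sit at 1.45, 2.03 and 2.16, and pigs 11 and 14 at -0.20 and -0.07. The oxidative phosphorylation points run from -1.11 in pig 18 to 0.00 in pig 14.

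The genes of the scar's matrix divided the pigs in this way. Of 40 listed scar matrix genes 28 were measured, and 16 were higher and 1 lower at an unadjusted p under 0.05, beside 5.92% and 8.86% of all named genes. The gene lists here and below were chosen with earlier results of these data known. Their counts therefore describe the lists and are no independent test. The list's median difference was 0.94, against -0.04 over all named genes. By pig, the median was 1.45 in pig 10, -0.20 in pig 11, -0.07 in pig 14, 0.43 in pig 15, 2.03 in pig 16 and 2.16 in pig 18. In pigs 10, 16 and 18, 27, 26 and 26 of the 28 genes were higher in the border zone, and in pig 11 only 3 were. Without pig 10, 16 or 18 the count of 16 became 5, 5 or 6, and without pig 11 it was 22. Counts over all kept probes moved too, from 1735 higher to 935, 734 or 809, and to 2346 without pig 11. With each pig left out, all 5911 named genes gave 129 to 506 higher and 156 to 627 lower. These ranges also stand beside the leave-one-out counts of the lists below. Within scan series 1 alone, 20 of the 28 genes were called higher at an adjusted p under 0.05, beside 3.47% of all named genes, and within scan series 2 alone 0 were. The fibroblast markers' summed level moved with the list, at 1.82, 3.06 and 3.08 times the normal region's in pigs 10, 16 and 18 and 0.886 times in pig 11, a sum that holds 4 genes of this list.

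COL1A1, a chain of type I collagen, the main fibre of scar, had levels of 0.10, 1.81 and 3.57 (lowest, median and highest, log2 above the array's 75th percentile) in the normal region and 1.60, 3.50 and 4.58 in the border zone. The ranges overlapped, and the difference was 2.61, 3.06 and 3.23 in pigs 10, 16 and 18, 0.70 in pig 15 and -0.06 and -0.07 in pigs 11 and 14. Its mean was 1.58 ± 0.53 (SE, n = 6 pairs), a 2.99-fold higher level with a 95% interval of 0.34 to 2.82 on the log2 scale. COL1A2, the other chain, averaged 1.23 ± 0.41, with a difference of -0.16 in pig 11 and 0.12 in pig 14. FN1, fibronectin, on which collagen is laid down, was at 2.40, 2.91 and 4.33 in the normal region and 1.90, 5.43 and 6.78 in the border zone. The groups overlapped because pig 11, with -0.50, had the lowest border zone level, while the mean difference was 1.75 ± 0.58.

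The small leucine-rich proteoglycans, which space collagen fibrils, followed the same pigs. FMOD, fibromodulin, was at -5.78, -5.38 and -2.88 in the normal region, where it was above background in 2 of 6 pigs, and at -5.39, -2.02 and -1.31 in the border zone, above background in 5 of 6. It was higher in the border zone in 6 of 6 pigs, by 0.29 to 0.55 in pigs 11, 14 and 15 and by 3.41 to 4.47 in the others, with a mean of 2.22 ± 0.68. After normexp background correction the mean was 0.51, and on the values of the authors' table it was 0.50. LUM, lumican, averaged 1.29 ± 0.40 and was higher in 5 of 6 pigs. DCN, decorin, averaged 0.61 ± 0.23, and its group ranges overlapped. VCAN, versican, a large proteoglycan of provisional matrix, was higher in 6 of 6 pigs, by 0.01 in pig 11 and 2.25 in pig 16, with a mean of 1.12 ± 0.34.

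The largest mean difference of the list was that of COL11A1, a fibrillar collagen otherwise known from cartilage, at 2.56 ± 0.81, and 1.55 after normexp background correction. Its levels were -4.54, -3.01 and -1.52 in the normal region and -4.59, 0.08 and 2.20 in the border zone, which overlapped through pigs 11 and 14. COL6A3, of the type VI microfibrils, averaged 0.96 ± 0.30 and BGN, biglycan, 1.44 ± 0.64 with an adjusted p of 0.365. The exception was FBLN5, fibulin 5, an elastic fibre protein. It was lower in the border zone in 5 of 6 pigs, with levels of 3.92, 4.80 and 4.99 in the normal region and 3.33, 4.44 and 4.79 in the border zone, and a mean difference of -0.37 ± 0.11.

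Matricellular proteins and other genes of activated fibroblasts gave 11 of 21 measured genes higher and 0 lower at an unadjusted p under 0.05, beside 5.92% and 8.86% of all named genes, with a median of 1.07. The count of 11 ran from 3 to 16 with each pig left out in turn, beside 129 to 506 of all 5911 named genes. The per-pig medians were 1.60, -0.28, 0.07, 0.43, 2.33 and 2.38 in pigs 10, 11, 14, 15, 16 and 18. PTN, pleiotrophin, a heparin-binding growth factor, was the member with the smallest p and the only one with a difference of 2 or more in pig 15. It was at -0.77, -0.35 and 1.06 in the normal region and -0.17, 2.81 and 4.29 in the border zone. Every pig was higher, by 0.21 in pig 11, 0.85 in pig 14, 2.40 in pig 15, 3.35 in pig 10, 4.21 in pig 18 and 4.86 in pig 16, and the mean of 2.65 ± 0.63 was a 6.26-fold difference with an interval of 1.18 to 4.11.

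LRRC17, a secreted leucine-rich repeat protein, was also higher in 6 of 6 pigs, with levels of -0.996, -0.48 and 0.45 against -0.94, 1.34 and 2.40 and a mean difference of 1.45 ± 0.42. POSTN, periostin, a marker of activated fibroblasts, had differences of 2.92, 3.11 and 4.12 in pigs 10, 16 and 18, 0.66 and 0.47 in pigs 14 and 15 and -0.24 in pig 11, with a mean of 1.84 ± 0.60. For TNC, tenascin C, a matrix protein of wound edges, the levels were -4.31, -3.09 and -1.31 in the normal region and -4.75, 0.39 and 1.63 in the border zone. Its differences spread from -0.996 in pig 11 to 5.69 in pig 10, and the mean was 2.57 ± 0.89, and 1.69 after normexp background correction. FAP, a surface protease of activated fibroblasts, averaged 1.29 ± 0.42, THY1, a fibroblast surface protein, 1.44 ± 0.50, and SPP1, osteopontin, 1.64 ± 0.69. ACTA2, the smooth muscle actin of myofibroblasts and vessel walls, had a mean of -0.12 ± 0.10 (adjusted p = 0.534), which turned to 0.11 under quantile scaling and 0.20 after normexp background correction, and only 3 of its 7 probes shared the sign of the brightest. CDH11, a cadherin of mesenchymal cells, was higher in 6 of 6 pigs at 1.07 ± 0.38, with 0.08 in pig 11 and 2.51 in pig 16.

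**Figure D2:**
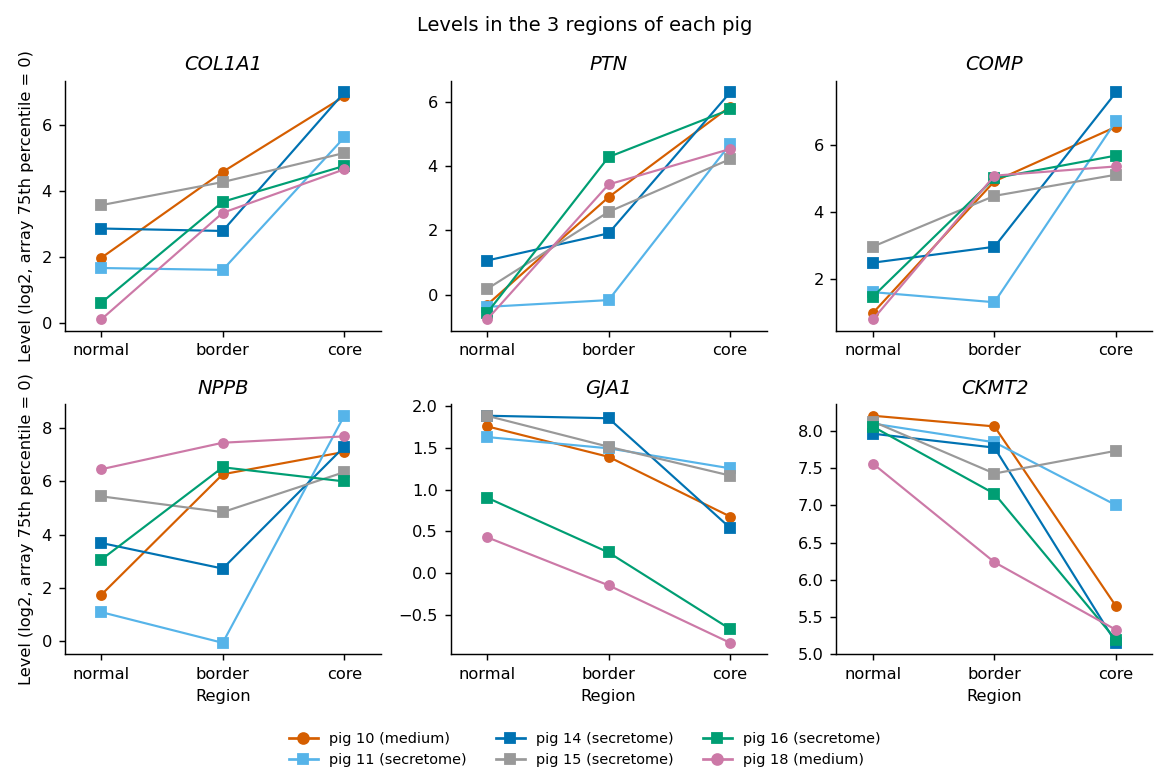
Level (log2 relative to the array's 75th percentile, y axis) of 6 genes in the normal region, border zone and infarct core (x axis), with 1 line per pig. The COL1A1 lines of pigs 11 and 14 stay level from normal region to border zone, with differences of -0.06 and -0.07, and those of pigs 16 and 18 climb by 3.06 and 3.23. For NPPB, 3 lines go up from normal region to border zone and 3 go down.

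Cartilage and tendon genes were a small group, with 9 of 22 listed genes measured, and 7 were higher and 1 lower at an unadjusted p under 0.05, beside 5.92% and 8.86% of all named genes. The median was 1.04. After normexp background correction 4 of 9 were higher at that p, with a median of 0.62, and on the values of the authors' table it was 2 of 6, with a median of 0.33. Of all named genes, 237 of 5911 and 324 of 4514 were higher in these settings. TNMD, tenomodulin, a membrane protein of tendon and ligament, had a mean difference of 3.24 ± 0.92, which was 0.62 after normexp background correction and 0.59 in the authors' table. It was above background in 1 of 6 normal regions and 5 of 6 border zones, at -7.39, -6.33 and -4.90 against -7.10, -3.24 and 0.68, and it was lower in the border zone only in pig 11. ACAN, aggrecan, the proteoglycan of cartilage, averaged 2.50 ± 0.72 (1.67 after normexp background correction) and was higher by 1.69 in pig 14, although 1 of its 3 probes showed only 0.07. COMP, cartilage oligomeric matrix protein, was at 0.80, 1.55 and 2.97 in the normal region and 1.31, 4.70 and 5.09 in the border zone. Its ranges overlapped, and the mean difference was 2.24 ± 0.66 at the brighter probe and 3.82 at the other.

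SOX9, the transcription factor of cartilage, was above background in 2 of 6 normal regions and 4 of 6 border zones and averaged 1.04 ± 0.30, with pig 11 again the one pig below 0, and its mean was -0.34 after normexp background correction. CILP, cartilage intermediate layer protein, ran from -1.01 in pig 11 to 5.33 in pig 10, with a mean of 2.67 ± 0.86. MATN2, matrilin 2, was higher in 6 of 6 pigs by 0.83 ± 0.25. COL10A1, the collagen of growth plate cartilage, went the other way in 6 of 6 pigs, at -0.77 ± 0.20. It was dim, above background in 5 of 6 normal regions and 2 of 6 border zones.

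Enzymes that cut matrix, and their inhibitors, differed less, with 8 of 21 higher and 1 lower at an unadjusted p under 0.05, beside 5.92% and 8.86% of all named genes. The median was 0.42, and the count of 8 ran from 0 to 10 with each pig left out, beside 129 to 506 of all 5911 named genes. MMP16, a membrane-bound metalloprotease, averaged 0.49 ± 0.17, ADAMTS2, which trims procollagen, 0.59 ± 0.21 (-0.11 after normexp background correction), and MMP14, the membrane protease that activates MMP2, 0.42 ± 0.15. MMP14 was lower only in pig 10, at -0.08, and was 0.27 and 0.18 higher in pigs 11 and 14. MMP2, gelatinase A, averaged 0.84 ± 0.31. The inhibitor TIMP1 averaged 0.50 ± 0.20.

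In the TGF-beta family, the main inducers of fibroblast collagen, 4 of 21 genes were higher and 1 lower at an unadjusted p under 0.05. The shares of all named genes were 5.92% and 8.86%, and the list's median was 0.18. The ligand TGFB3 averaged 1.57 ± 0.50, with levels of 0.50, 1.13 and 2.16 in the normal region and 0.23, 2.91 and 4.34 in the border zone. TGFB1 was higher in 6 of 6 pigs by no more than 0.31, with a mean of 0.18 ± 0.08. GDF15, a secreted stress factor of the same family, was at -3.85, -3.31 and -3.09 against -3.52, -2.24 and -1.58. Its difference was between 1.10 and 1.62 in pigs 10, 15, 16 and 18 and was 0.30 and -0.09 in pigs 14 and 11, with a mean of 0.95 ± 0.24. Over all alternative settings the GDF15 mean ran from 0.06 to 1.26. SMAD6, an inhibitor of BMP signals, was lower in 6 of 6 pigs at -0.24 ± 0.09. Of 14 insulin-like growth factor genes 3 were higher and 0 lower at that p, beside the same shares. They were IGF1 at 1.07 ± 0.34, the binding protein IGFBP6 at 1.26 ± 0.42 and IGF2 at 0.65 ± 0.25, each with values below 0 in pig 11.

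Contractile genes had small differences. Of 21 measured sarcomere genes 5 were lower and 1 higher at an unadjusted p under 0.05, beside 8.86% and 5.92% of all named genes. In 6 of 6 pigs 5 were lower, beside 6.97% of all named genes, and the list's median was -0.23. That median depended on the scaling, at 0.01 under quantile scaling and 0.08 after normexp background correction, and the count of 5 ran from 1 to 6 with each pig left out. The per-pig medians were -0.13, -0.09, -0.02, -0.13 and -0.19 in pigs 10, 11, 14, 15 and 16, and -0.79 in pig 18. LDB3, a Z-disc protein, was at 7.95, 9.24 and 9.36 in the normal region and 6.75, 8.93 and 9.30 in the border zone. It was lower in every pig, from -0.06 in pig 11 to -1.19 in pig 18, with a mean of -0.50 ± 0.17. TCAP, which anchors titin, averaged -0.40 ± 0.16 and was lower in 6 of 6 pigs. MYH7, the slow myosin heavy chain of the ventricle, was lower in 6 of 6 pigs, but with 5 of them at -0.23 or nearer 0 and -0.59 in pig 18, at -0.20 ± 0.10 (adjusted p = 0.373), which turned to 0.02 under quantile scaling. MYH6, the fast cardiac heavy chain, ran from -2.86 in pig 10 to 0.88 in pig 14, with a mean of -0.73 ± 0.44 (adjusted p = 0.436), and ACTC1, cardiac actin, averaged -0.14 ± 0.10 (adjusted p = 0.495) and 0.11 under quantile scaling.

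A pair of muscle genes had higher means instead. MYL1, an essential light chain of fast skeletal and fetal muscle, was higher in 6 of 6 pigs with levels of 0.01, 1.88 and 2.53 against 2.07, 2.50 and 4.57. The difference was 2.85 in pig 10, 2.58 in pig 18, 2.04 in pig 15, 0.96 in pig 16, 0.28 in pig 14 and 0.09 in pig 11. The mean was 1.47 ± 0.41, and all 15 of its kept probes gave between 1.46 and 1.56. XIRP2, which binds actin at the intercalated disc, was higher in 4 of 6 pigs at 0.99 ± 0.42, with -0.61 and -0.31 in pigs 11 and 14.

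Natriuretic peptides did not share 1 direction. NPPB, the B-type peptide, was higher by 4.54 in pig 10, 3.48 in pig 16 and 1.00 in pig 18 and was at -1.16, -0.97 and -0.59 in pigs 11, 14 and 15. The mean was 1.05 ± 0.83 (95% interval -0.88 to 2.98, adjusted p = 0.528), the normal region already running from 1.08 to 6.46. NPPA, the A-type peptide, was 2.25 and 2.19 higher in pigs 16 and 18, -1.35 and -1.55 in pigs 10 and 15 and 0.18 and -0.14 in the others, with a mean of 0.26 ± 0.56 (adjusted p = 0.825). For UCHL1, a ubiquitin hydrolase of the stress list, the mean was 1.27 ± 0.42, with 3.26 in pig 16 and -0.01 and 0.02 in pigs 11 and 14. Of the 15 measured stress and fetal genes 3 were higher and 0 lower at an unadjusted p under 0.05, beside 5.92% and 8.86% of all named genes.

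Electrical and calcium genes had small differences, mostly downward. GJA1, which encodes connexin 43, was at 0.43, 1.69 and 1.89 in the normal region and -0.15, 1.44 and 1.85 in the border zone. The ranges overlapped, yet 6 of 6 pigs were lower, from -0.03 in pig 14 to -0.66 in pig 16, with a mean of -0.36 ± 0.11, a 1.28-fold difference. KCNJ2, the inward rectifier that holds the resting potential, was lower in 6 of 6 pigs at -0.44 ± 0.14, and KCNJ5, a subunit of the acetylcholine-gated channel, averaged -0.39 ± 0.15. Of 18 ion channel and connexin genes 4 were lower and 0 higher at an unadjusted p under 0.05, beside 8.86% and 5.92% of all named genes. After normexp background correction 3 of the 18 were lower at that p, beside 90 of all 5911 named genes. In that setting 7 were higher on average, and the median was -0.17. Of 15 calcium genes 3 were lower and 1 higher at that p, beside the same shares. HRC, a calcium-binding protein of the sarcoplasmic reticulum, was lower in 6 of 6 pigs at -0.38 ± 0.11, and PLN, phospholamban, which restrains the calcium pump, averaged -0.42 ± 0.16. ATP2A2, that pump, was at -0.47 ± 0.22 (adjusted p = 0.373), with 0.11 and 0.36 in pigs 11 and 14. ASPH, the gene of aspartyl hydroxylase and junctin, was the higher member at 0.65 ± 0.24. After normexp background correction 0 of the 15 calcium genes were lower or higher at that p, beside 90 and 237 of all 5911 named genes. Then 7 were higher on average, and the median was -0.07. Over all alternative settings HRC ran from -0.70 to -0.07, PLN from -0.87 to -0.06 and ASPH from 0.002 to 1.45.

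Energy genes had small differences on 1 side of 0. All 20 measured oxidative phosphorylation genes were lower on average, 19 of them at an unadjusted p under 0.05, beside 8.86% of all named genes, and 10 were lower in 6 of 6 pigs, beside 6.97%. The 20 differences lay between -0.59 and -0.33, with a median of -0.41. By pig the median was -0.31, -0.06, 0.00, -0.40, -0.64 and -1.11 in pigs 10, 11, 14, 15, 16 and 18. The cardiomyocyte markers' summed level moved with it, at 0.848, 0.973, 1.02, 0.865, 0.810 and 0.563 times the normal region's in the same pigs, and its part in the result was not tested. These genes are among the brightest on the array, and bright probes were lower in the border zone more often than others, as given below with their values. Under quantile scaling all 20 were still lower on average, with a median of -0.24 and 8 at an unadjusted p under 0.05. After normexp background correction the median was -0.10 and the count 0. Of all 5911 named genes, 424 were lower at that p under quantile scaling and 90 after normexp background correction. The count of 19 was 9, 6, 4 and 8 without pig 10, 15, 16 and 18 and at least 19 without pig 11 or 14. Over all kept probes the 2762 lower at that p became 1968, 1889, 1069 and 1458, and 3049 and 3357 without pigs 11 and 14.

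COX7C, a subunit of cytochrome oxidase, was at 8.05, 8.49 and 8.62 in the normal region and 7.17, 8.19 and 8.39 in the border zone. Each pig was lower, with -0.10 in pig 14, -0.17 in pig 11 and values down to -0.88 in pig 18, and the mean of -0.41 ± 0.11 was a 1.32-fold difference. COX7A1, the muscle form of another subunit, averaged -0.52 ± 0.15, and ATP5G1, of the ATP synthase ring, -0.52 ± 0.15, both lower in 6 of 6 pigs. CKMT2, the mitochondrial creatine kinase that passes on ATP's energy, was at 7.56, 8.08 and 8.21 against 6.23, 7.60 and 8.07, with a mean of -0.59 ± 0.17, and its 11 probes gave -0.62 to -0.56.

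All 21 measured genes of the TCA cycle and ketone use were lower on average, with a median of -0.40. Of them 13 were so at an unadjusted p under 0.05, beside 8.86% of all named genes. Under quantile scaling the count was 6 and the median -0.27, and after normexp background correction 0 and -0.11, with 3 genes higher. PDHA1, which admits pyruvate to the cycle, averaged -0.47 ± 0.15, and IDH3B and IDH3A, subunits of isocitrate dehydrogenase, -0.63 ± 0.22 and -0.40 ± 0.14. In fatty acid oxidation 24 of 25 genes were lower on average, with a median of -0.39, and 11 were so at an unadjusted p under 0.05, beside the same 8.86%. Under quantile scaling the count was 5 and the median -0.30, and after normexp background correction 0 and -0.12. With each pig left out the count of 13 ran from 1 to 19 and that of 11 from 0 to 17, beside 156 to 627 of all 5911 named genes. For both lists, the counts under quantile scaling stand beside 424 of the 5911, and those after normexp background correction beside 90. ECHS1, an enzyme of the beta-oxidation spiral, was at -0.41 ± 0.13 and ETFB, which passes its electrons on, at -0.36 ± 0.13, both lower in 6 of 6 pigs. MLYCD, which removes the malonyl-CoA brake on fatty acid entry, averaged -0.55 ± 0.21, with -1.69 in pig 18 and between -0.51 and 0.06 in the other 5. Fatty acid oxidation medians were 0.09 and 0.05 in pigs 11 and 14 and below 0 in the other 4.

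The lipid droplet and adipocyte list had a median of -0.24. DGAT2, which makes triglyceride, was lower in 6 of 6 pigs, with levels of -1.40, 0.03 and 1.00 against -2.43, -0.63 and 0.26 and a mean of -0.77 ± 0.19. PLIN5, which coats lipid droplets in oxidative muscle, averaged -1.06 ± 0.39, with -3.02 in pig 18 and 0.26 in pig 11. LIPE, hormone-sensitive lipase, averaged -0.81 ± 0.29, although 1 of its 3 probes gave 0.02. Of the 18 measured genes of the list 6 were lower and 1 higher at an unadjusted p under 0.05, beside 8.86% and 5.92% of all named genes. After normexp background correction the count of 6 was 2, beside 90 of all 5911 named genes.

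Glycolysis and hypoxia genes gave 11 of 27 lower and 2 higher at an unadjusted p under 0.05, beside 8.86% and 5.92% of all named genes, with a median of -0.23. The count of 11 ran from 3 to 14 with each pig left out, was 5 under quantile scaling and, after normexp background correction, 0 with a median of -0.06. Of all 5911 named genes 156 to 627, 424 and 90 were lower at that p in these settings. ALDOC, an aldolase, was lower in 6 of 6 pigs at -0.34 ± 0.09. PDK1, which blocks pyruvate entry to the TCA cycle, averaged -0.44 ± 0.13, and EPAS1, the hypoxia factor HIF-2 alpha, was lower in 6 of 6 pigs at -0.32 ± 0.10. VEGFA, the vessel growth factor, was at 1.82, 1.87 and 2.02 in the normal region and 0.69, 1.37 and 1.83 in the border zone. The normal values were tight and the border values spread below them, overlapping only at their top, and the mean was -0.54 ± 0.18. HIF1A averaged 0.11 ± 0.09 (adjusted p = 0.531). HK2, a hexokinase, was higher by 1.03 ± 0.40, but was above background in 1 of 6 normal regions and 4 of 6 border zones, and its mean was -0.40 after normexp background correction.

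Vessel genes had differences in the same small range, and blood genes larger ones. Of 21 endothelial genes 5 were lower and 0 higher at an unadjusted p under 0.05, beside 8.86% and 5.92% of all named genes. In 6 of 6 pigs 5 were lower, beside 6.97% of all named genes. The list's median was -0.22, and 0.01 after normexp background correction. VWF, von Willebrand factor, was at 3.64, 5.25 and 5.54 against 3.03, 4.99 and 5.43, lower in every pig at -0.04 to -0.60, with a mean of -0.30 ± 0.10 that became 0.001 after normexp background correction. CLDN5, a tight junction protein of endothelium, averaged -0.35 ± 0.13 and PROX1, a factor of lymphatic endothelium also made by cardiomyocytes, -0.44 ± 0.16, both lower in 6 of 6 pigs. PECAM1, which marks all endothelium, was at -0.13 ± 0.10 (adjusted p = 0.531). HBA1, alpha globin of red blood cells, was at 4.66, 6.08 and 7.57 in the normal region and 2.86, 4.77 and 7.23 in the border zone. Every pig was lower, at -0.34 to -1.80, and the mean of -0.96 ± 0.22 was the lowest among genes of 1 sign in all pigs that were above background on all arrays of a region. HBE1, another globin, averaged -0.58 ± 0.15 at its brighter probe and 0.27 at its other, and HBB, dim on this array, averaged -0.77 ± 0.37 (adjusted p = 0.372). The summed red blood cell markers were lower in the border zone in 6 of 6 pigs, at between 0.287 and 0.791 times the normal region.

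Genes of the heart's outer lining gave mixed values, with 6 of 8 measured genes higher and 2 lower on average. KRT8, a keratin of mesothelium and other simple epithelia, was at -1.54, -0.12 and 1.65 in the normal region and -0.98, 2.94 and 4.08 in the border zone. Each pig was higher, by 4.62 in pig 10, 3.67 in pig 16, 1.77 in pig 15, 1.34 in pig 18, 0.56 in pig 11 and 0.08 in pig 14, with a mean of 2.01 ± 0.61. KRT18, its partner keratin, averaged 1.43 ± 0.80 (adjusted p = 0.416), with -2.07 in pig 14. Only 3 of 8 mesothelial markers were measured, and their sum was 0.763 to 3.48 in the normal region and 0.969 to 17.8 in the border zone. This sum was higher in the border zone in 6 of 6 pigs, at between 1.01 and 13.2 times the normal region. SLPI, a secreted protease inhibitor of the same list, was lower in 5 of 6 pigs at -0.67 ± 0.20, and TCF21, an epicardial and fibroblast factor, averaged 0.48 ± 0.21 (adjusted p = 0.363).

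Few immune genes had an unadjusted p under 0.05, while most members of several immune lists were higher on average. Of 26 macrophage and monocyte genes 0 were higher and 0 lower at that p, beside 5.92% and 8.86% of all named genes. On average 23 were higher and 3 lower, beside 2521 and 3388 of all 5911 named genes. The list's median was 0.30. By pig it was 0.87 and 1.04 in pigs 16 and 18, 0.24 and 0.18 in pigs 10 and 15 and -0.26 and -0.31 in pigs 11 and 14. APOE, made by lipid-laden macrophages, had the smallest p, at -4.01, -3.29 and -1.18 against -3.57, -1.45 and -0.64, and averaged 1.12 ± 0.57 (adjusted p = 0.391), and 0.48 after normexp background correction. AIF1 averaged 0.48 ± 0.26 (adjusted p = 0.412), and SIGLEC1, a macrophage sialic acid receptor above background in 1 normal region and 3 border zones, 0.59 ± 0.34 (adjusted p = 0.423) and -0.34 after normexp background correction. After that correction 7 of the 26 were higher at an unadjusted p under 0.05, beside 237 of all 5911 named genes. Within scan series 1 alone, a fit of only 2 pigs, 6 were called higher, beside 3.47% of all named genes.

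Among 39 cytokine and inflammation genes 3 were higher and 0 lower at an unadjusted p under 0.05, beside 5.92% and 8.86% of all named genes. CXCL14, a chemokine also made by fibroblasts, was at -2.99, -2.25 and -1.03 against -3.23, 0.32 and 1.10, with 4.09 in pig 10, -0.58 and -0.47 in pigs 11 and 14 and a mean of 1.78 ± 0.66, which was 1.16 after normexp background correction. CCL8, a monocyte chemokine, averaged 0.69 ± 0.26 and IL18, a cytokine released by the inflammasome, 0.87 ± 0.37. Over all alternative settings CCL8 ran from 0.02 to 1.45. CASP1, the inflammasome's protease, was at 0.49 ± 0.25 (adjusted p = 0.387), TNF at -0.17 ± 0.16 (adjusted p = 0.589) and IL1B at -0.05 ± 0.53 (adjusted p = 0.967). Of 32 interferon response genes 30 were higher and 2 lower on average, beside 2521 and 3388 of all 5911 named genes. At an unadjusted p under 0.05, 4 of the 32 were higher and 0 lower, beside 5.92% and 8.86% of all named genes. They were led by IFIT3 at 0.48 ± 0.17, EIF2AK2 at 0.30 ± 0.11 and USP18 at 0.26 ± 0.11. LCN2, an iron-binding protein of neutrophils and stressed tissue, averaged 1.29 ± 0.41, with 1.15 to 2.62 in pigs 10, 15, 16 and 18 and -0.17 in pig 14.

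Complement genes had a median of 0.40, with 17 of 22 higher and 5 lower on average. At an unadjusted p under 0.05, 2 were higher and 1 lower, beside 5.92% and 8.86% of all named genes. The count of 2 was 0 without pig 10, 15, 16 or 18, 7 without pig 11 and 10 without pig 14. It was 9 after normexp background correction, beside 237 of all 5911 named genes. Within scan series 1 alone, a fit of only 2 pigs, 5 were called higher, beside 3.47% of all named genes. Other lists had few members at an unadjusted p under 0.05, beside 5.92% higher and 8.86% lower of all named genes: 2 of 21 cell cycle genes were higher and 1 lower, 1 of 22 antigen presentation genes higher and 0 lower, 1 of 23 T and NK cell genes higher and 1 lower, and 0 of 39 cytosolic ribosome genes either way. The ribosome list's median was -0.07, and 0.11 under quantile scaling and 0.22 after normexp background correction. Cardiac transcription factors gave 1 of 14 higher and 1 lower, and MEF2C of this list averaged -0.01 ± 0.10 (adjusted p = 0.965).

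**Figure D3:**
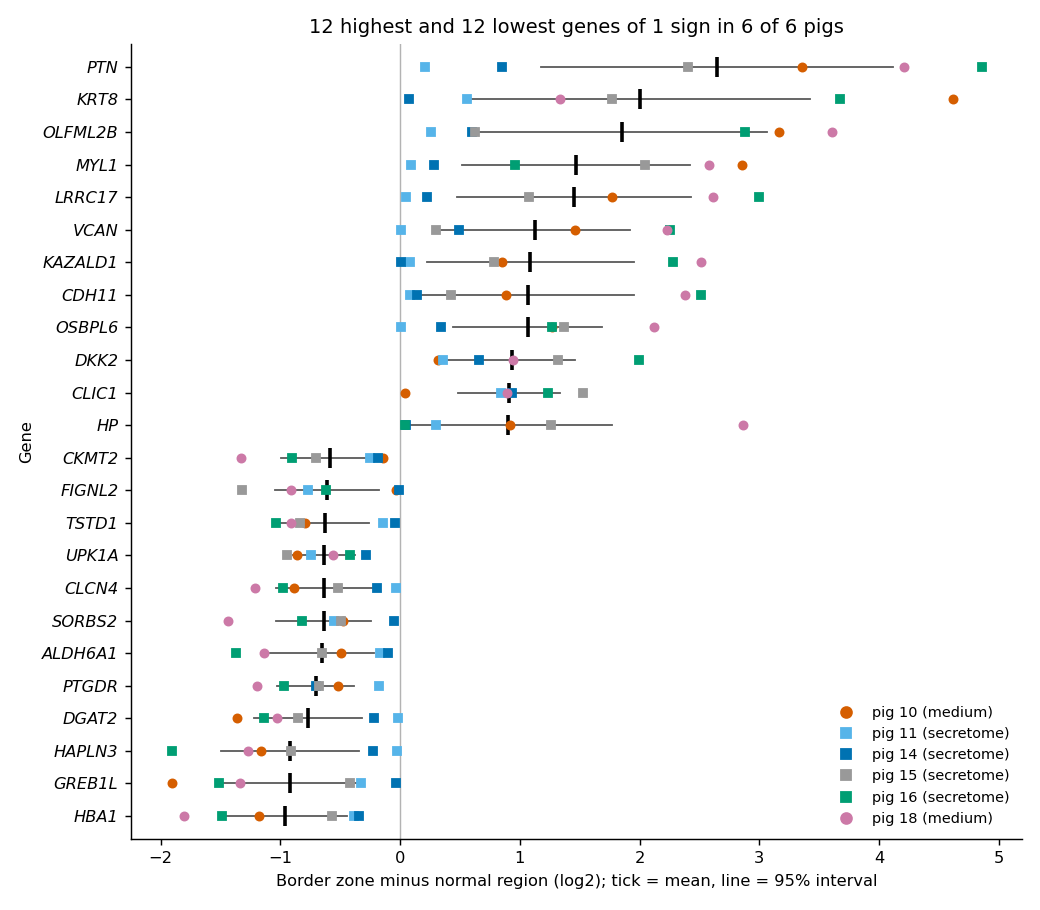
Border zone minus normal region difference (log2, x axis) of the 12 highest and 12 lowest genes with 1 sign in 6 of 6 pigs (y axis). Points are pigs, and the bar is the mean with its 95% interval from the paired fit. PTN reaches 4.86 in pig 16 and HBA1 -1.80 in pig 18, and in both genes pig 11 or 14 lies nearest 0.

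Genes that kept their sign in all 6 pigs, and were above background on all 6 arrays of a region, were ranked by their mean difference. The 12 highest were PTN, KRT8, OLFML2B, MYL1, LRRC17, VCAN, KAZALD1, CDH11, OSBPL6, DKK2, CLIC1 and HP. OLFML2B, a secreted matrix protein, was at -4.43, -3.37 and -1.86 against -4.17, -1.14 and -0.06, with a mean of 1.86 ± 0.51. KAZALD1, a secreted protein related to IGF-binding proteins, averaged 1.09 ± 0.37, OSBPL6, a sterol-binding protein, 1.06 ± 0.27, and HP, haptoglobin, 0.90 ± 0.37. Over all alternative settings OSBPL6 ran from 0.06 to 1.70. DKK2, a secreted regulator of Wnt signals, spread less than the matrix genes, with 0.32 and 0.36 in pigs 10 and 11, 0.66 in pig 14 and 1.99 in pig 16, and a mean of 0.93 ± 0.23 that became -0.0417 after normexp background correction.

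CLIC1, a chloride intracellular channel protein, had a pattern of its own. Its levels were 0.37, 1.01 and 2.07 in the normal region and 1.31, 2.01 and 2.77 in the border zone, which overlapped. The difference was 0.84 and 0.94 in pigs 11 and 14, 1.52, 1.24 and 0.89 in pigs 15, 16 and 18, and 0.04 in pig 10. The mean was 0.91 ± 0.18, from 1 probe, and pigs 11 and 14, whose scar matrix medians lay near 0, were not near 0 here.

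The 12 lowest were HBA1, GREB1L, HAPLN3, DGAT2, PTGDR, ALDH6A1, SORBS2, CLCN4, UPK1A, TSTD1, FIGNL2 and CKMT2. HAPLN3, a hyaluronan link protein, was at 0.46, 1.52 and 2.09 against -0.81, 0.70 and 1.75, with a mean of -0.92 ± 0.24, and GREB1L averaged -0.92 ± 0.26. PTGDR, a prostaglandin D2 receptor, ran from -0.17 in pig 11 to -1.19 in pig 18, at -0.70 ± 0.14. ALDH6A1, of mitochondrial valine breakdown, averaged -0.65 ± 0.19, SORBS2, a Z-disc adaptor, -0.64 ± 0.17, CLCN4, a chloride-proton exchanger, -0.64 ± 0.17, and FIGNL2 -0.61 ± 0.18. TSTD1 averaged -0.63 ± 0.16, although 1 of its 4 probes gave 0.10.

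UPK1A, a uroplakin, was 1 of 4 named genes (0.0677%) whose border zone values all lay below all normal region values, the others being PCDH1, PIAS4 and C10orf125, and 0 lay wholly above (0%). It was at -3.79, -3.58 and -3.31 in the normal region and -4.49, -4.16 and -4.06 in the border zone, with a mean of -0.64 ± 0.11. Over all alternative settings that mean ran from -0.71 to -0.08. PCDH1, a protocadherin, was at -2.30, -2.26 and -2.10 against -2.81, -2.53 and -2.32. Its mean difference ran from -0.50 to -0.08 over those settings. PIAS4, a SUMO ligase, averaged -0.23 ± 0.10 (adjusted p = 0.360), which turned to 0.034 after normexp background correction, and C10orf125 -0.24 ± 0.08. For C10orf125 the alternative settings gave -0.42 to -0.05.

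By p alone the named genes led with dim ones. ANKS1B, a scaffold protein best known from neurons, had the smallest p in the higher direction, at -7.08, -6.51 and -5.03 against -5.59, -4.29 and -3.13, and a mean of 1.86 ± 0.23 with every pig between 1.04 and 2.67. It was above background in 1 of 6 normal regions and 4 of 6 border zones. LHX9, a homeobox factor, averaged 0.71 ± 0.13 and FAM26D 0.90 ± 0.19, each with the same detection, CLIC1 came next to LHX9, and ENTPD8, an ectonucleotidase, was above background in 0 of 6 normal regions and 3 of 6 border zones, for which no fold is given. Probes were kept where at least 3 of the 12 arrays were above background. ANKS1B, LHX9, FAM26D and ENTPD8 met this through their border zone arrays, the region where they were higher. Their presence in the ranking thus depended on the border zone values, and their rank is no independent support for a difference. After normexp background correction ANKS1B, LHX9, FAM26D and ENTPD8 all had negative means, at -0.19, -0.39, -0.34 and -0.39. The smallest p values in the lower direction belonged to UPK1A, PTGDR, NHLH2, AWN and LAD1. NHLH2, a transcription factor, averaged -0.37 ± 0.08, AWN, a spermadhesin, -0.40 ± 0.09, and LAD1, ladinin, -0.46 ± 0.10. Over all alternative settings NHLH2 ran from -0.50 to -0.08, AWN from -0.49 to -0.25 and LAD1 from -0.63 to -0.18.

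Signal brightness moved with the lower genes. Split into 3 equal bins by mean level, 3.99% of the dimmest probes, 4.51% of the middle ones and 9.26% of the brightest were lower in the border zone in 6 of 6 pigs, and 2.02%, 2.31% and 1.56% were higher in 6 of 6. The median difference was -0.01, -0.02 and -0.08 in these bins. Among the 11164 probes left out as too dim, 33.7% were lower in 6 of 6 pigs and 0.251% higher, with a median of -0.24. The 75th percentile used for scaling was higher in the border zone in every pig, as given above. Its part in the small, one-sided differences of the bright energy genes was not tested. Quantile scaling, which gives all arrays 1 distribution, moved the median over all kept probes from -0.04 to -0.03, and normexp background correction moved it to -0.20.

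**Figure D4:**
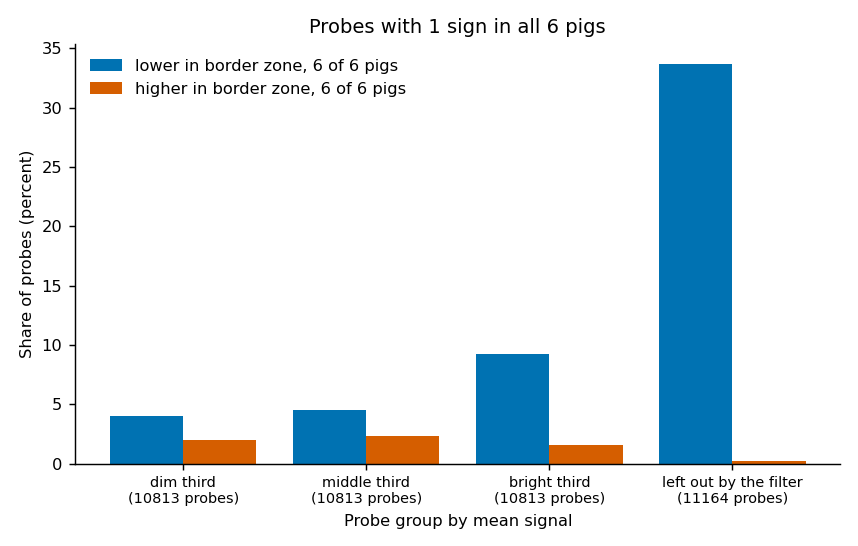
Share of probes (percent, y axis, from 0) whose border zone minus normal region difference had the same sign in all 6 pigs, for the dim, middle and bright bins of kept probes and the probes left out by the background filter (x axis). Bars are shares lower and higher in the border zone. The lower share is 33.7% among the left-out probes and 9.26% in the bright bin, against 3.99% and 4.51% in the other kept bins.

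Against the infarct core of the same 6 pigs the border zone differed widely. On 18 arrays with pig as a block, 7628 probes (23.5%) were called higher and 6419 (19.8%) lower in the border zone than in the core at an adjusted p under 0.05, and 1592 (26.9%) and 1355 (22.9%) of the named genes. Without pig 14 the probe counts were 4707 and 4068, and quantile scaling gave 7898 and 6562. This comparison shares the 6 border zone arrays with the one above, so the values are set side by side only. Of the 28 scar matrix genes 27 were lower in the border zone than in the core, of the 26 macrophage genes 24, and of the 9 cartilage and tendon genes 7. All 20 oxidative phosphorylation genes, all 21 TCA cycle genes and 24 of 25 fatty acid oxidation genes were higher in the border zone than in the core, as were 15 of 21 sarcomere genes.

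For COL1A1 the border zone was -2.30 ± 0.52 below the core (adjusted p = 0.00485), beside 1.58 ± 0.53 above the normal region. PTN was -2.72 ± 0.55 below the core (adjusted p = 0.00291) and 2.65 ± 0.63 above the normal region. CKMT2 was 1.41 ± 0.34 above the core (adjusted p = 0.00653) and -0.59 ± 0.17 against the normal region. KRT8 was at -0.49 ± 0.70 against the core (adjusted p = 0.595). MYL1 was at 0.92 ± 0.56 against the core (adjusted p = 0.197), so its mean did not have this middle place, and the MYL1 border zone level was above the core in 5 of 6 pigs. IGF2 was at 0.00 ± 0.26 and XIRP2 at 0.03 ± 0.47 against the core (adjusted p = 0.993 and 0.968).

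Where a pig's border zone lay between its normal region and its core differed from pig to pig. For the scar matrix list the median step from normal region to border zone and then from border zone to core was -0.20 and 2.88 in pig 11, -0.07 and 3.17 in pig 14, 1.45 and 2.02 in pig 10, 2.03 and 1.11 in pig 16, and 2.16 and 0.62 in pig 18. In pig 15 both steps were small, 0.43 and 0.67. Oxidative phosphorylation gave 0.00 and -2.16 in pig 14, -0.06 and -0.98 in pig 11, -0.31 and -1.81 in pig 10, -0.64 and -1.48 in pig 16, -1.11 and -0.77 in pig 18, and -0.40 and -0.12 in pig 15. In pigs 11 and 14 nearly the whole step lay between border zone and core, and in pig 18 the larger step lay between normal region and border zone.

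**Figure D5:**
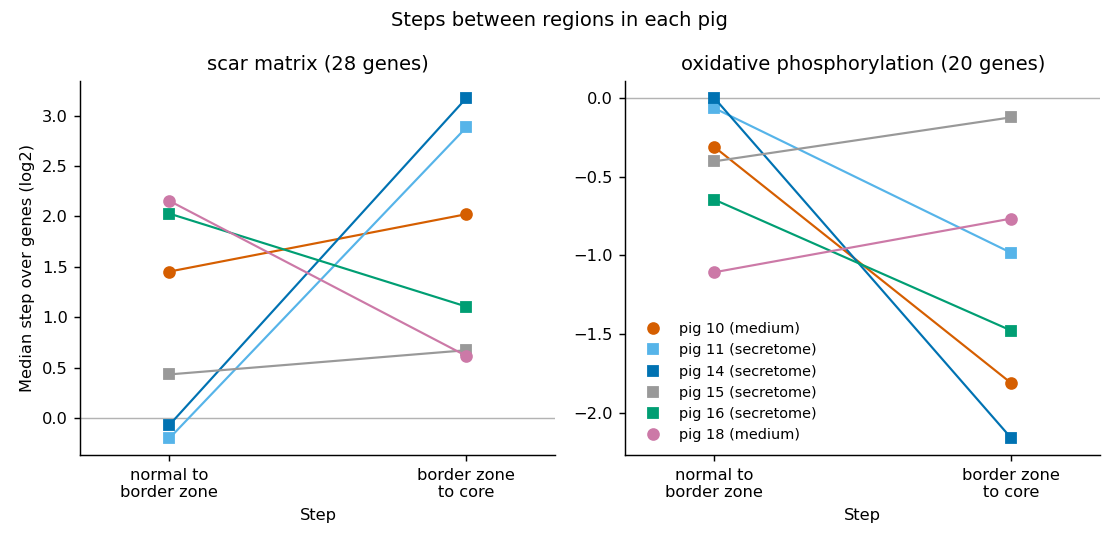
Median step over the scar matrix and oxidative phosphorylation lists (log2, y axis) from normal region to border zone and from border zone to infarct core (x axis) in each of 6 pigs. For scar matrix, pig 14 has -0.07 and 3.17 and pig 18 has 2.16 and 0.62. Both steps of a pig use the same border zone array.

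The treatment arms and the scan series were each compared as a difference of differences. No probe was called between the 4 secretome and the 2 medium pairs (0 of 32439, 0%), with 1914 (5.90%) at an unadjusted p under 0.05 and a smallest adjusted p of 0.739. The scar matrix list had a median of 1.75 in the medium pairs and 0.57 in the secretome pairs, with 3 of 28 genes at an unadjusted p under 0.05, beside 5.36% of all named genes, and both medium pigs, 10 and 18, were among the 3 with a large difference. PTN averaged 3.78 in the medium pairs and 2.08 in the secretome pairs, and TNC 5.43 and 1.14. Between scan series 1 and 2 also 0 probes were called (0%), but 6979 (21.5%) were at an unadjusted p under 0.05, with a smallest adjusted p of 0.147, and without pig 10 there were 4 calls. The scar matrix medians were 2.08 and 0.32 in the 2 series, with 22 of 28 genes at an unadjusted p under 0.05, beside 25.1% of all named genes, and the oxidative phosphorylation medians -0.87 and -0.19, with 18 of 20. Scan series 1 holds 1 pig of each arm, pig 16 and pig 18, so series and arm are not the same split, but the series and these 2 animals cannot be told apart.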

How the data were processed

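RNA of left ventricular tissue was measured on 1-colour Agilent porcine arrays, 24 from 9 pigs. Intensities are the deposited scanner signals (Feature Extraction 10.7.3.1, background-subtracted per the file headers). The authors' deposited series table holds 33348 probes as log2 values with column medians of 7.686 to 7.692. The submitters' processing notes name limma 3.14.4, and how that table was scaled is not given in the sources used here. Here log2 processed signals minus each array's 75th percentile were used; control and outlier spots were left out, and a probe was kept where 3 or more of the 12 arrays had it well above background. One p per probe came from limma 3.58.1 (R 4.3.3) with pig as a fixed block, lmFit and eBayes, Benjamini-Hochberg adjusted at 0.05; the procedure was tested on simulated data. Where spots were flagged (46 of all kept values), the fit dropped the value. A probe dim in 1 region could pass the background filter through the arrays of the other region alone.

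Of 43603 probes, 14001 carried 1 gene symbol, 28 several and 29574 none, from the array files or through RefSeq accessions and gene IDs. A gene was read from its brightest kept probe, and levels are not compared between probes. Named are the 12 highest and 12 lowest genes with 1 sign in 6 of 6 pigs that were above background on all arrays of a region, the 5 smallest p in each direction, the 3 smallest p of each list described, list members with values in a sentence, and fixed genes and markers. 1 gene that this rule picks is not reported here. The gene lists, markers and members were chosen with earlier results of these data known. Array pairs correlated at r of 0.905 to 0.992 and 0 were identical. Border and normal arrays come from the same animal, so the pairing is by the labels, and same-pig deviations correlated at 0.55 to 0.79, beside 0.57 and 0.68 between pigs 16 and 18, which share a scan series. P-values rest on 6 pairs, and that number limits the precision. Alternatives were other scalings, filters, background correction, block structures, array sets, the authors' table and leaving out each pig.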

Additional observations from a re-analysis of the deposited data

Results flagged for a closer look

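Dixon's test for a sample far from the others was run on the 6 differences of each of the 138 genes and 35 gene list medians given in the text, and on the share of probes above background and the 75th percentile of the 6 arrays of each region. In 5 of 177 sets 1 pig stood apart, where chance gives about 1 in 20, and in 4 of them it was pig 18, which also had the widest spread of differences over all probes. MLYCD was at -1.69 in pig 18, with the nearest other pig at -0.51. MYH7 was at -0.59 in pig 18, with the nearest at -0.23. The sarcomere median was -0.79 in pig 18 against -0.19, and the chaperone median -0.51 in pig 18 against -0.10. The endothelium median was -0.50 in pig 16, with the nearest at -0.18. Without pig 18 the sarcomere median was -0.11.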

How the results depend on the processing

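The paired limma fit called 0 probes higher and 0 lower at an adjusted p under 0.05, with 1735 and 2762 at an unadjusted p under 0.05, and gave 0 and 0 under quantile scaling, percentile scaling over detected probes, normexp background correction, the authors' table, both other filters, kept outlier spots, 18 arrays, equally weighted arms, slide as a term, a variance trend, scan series 2 alone, the mean over a gene's probes and with each pig left out (range 0 to 0). With pig not blocked (no replicate block) the counts were 0 and 0, with 716 and 256 unadjusted, and with pig as a random replicate block 0 and 0, with 2419 and 2457 and a smallest adjusted p of 0.0776. Exceptions were scan series 1 alone (863 and 115), 24 arrays with a fixed pig block (1 and 0) and 24 arrays with a random pig block and arms weighted equally (160 and 4). Against the infarct core, the counts of 7628 higher and 6419 lower became 2772 and 2940 with no replicate block, and ranged from 4707 to 8446 and 4068 to 7244 with each pig left out. The arm difference had 0 calls throughout, and that between scan series 0 to 4. The tests on the core with no block and on the arms, series and core without each pig, and the list counts by setting, were chosen after seeing the data.

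Of 138 genes, 116 kept their direction in every setting that gave them a value. Under quantile scaling ACTA2, ACTC1 and MYH7 turned to 0.11, 0.11 and 0.0185. After normexp correction ACTA2, ACTC1, MEF2C, MYH7, PECAM1, PIAS4 and VWF turned positive, at 0.20, 0.17, 0.21, 0.11, 0.15, 0.034 and 0.001, and ADAMTS2, ANKS1B, CCNB2, DKK2, ENTPD8, FAM26D, HK2, KIF15, LHX9, SIGLEC1 and SOX9 negative, at -0.11, -0.19, -0.37, -0.0417, -0.39, -0.34, -0.40, -0.42, -0.39, -0.34 and -0.34. With 24 arrays and a fixed pig block ACTA2, ACTC1, MEF2C and MYH7 were at 0.0409, 0.0864, 0.0569 and 0.0872, and with a random block and equal arms IL1B and MYH7 at 0.16 and 0.0091. IL1B was at 0.15 with arms weighted equally, 0.62 with slide as a term and in the 4 pigs with both arrays on 1 slide, and 1.34 in scan series 1. Within scan series 2 MEF2C, NPPA and TNF were at 0.10, -0.71 and 0.0255. With each pig left out in turn IL1B ran from -0.33 (without pig 16) to 0.52 (without pig 15), MEF2C from -0.0728 to 0.0533 (without pigs 14 and 18) and NPPA from -0.13 to 0.63 (without pigs 16 and 15). PRDM1 was at 0.0226 as the mean over its probes. The cause of these changes was not tested.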

Other observations

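Further members of the gene lists had 1 sign in most pigs, all with a Benjamini-Hochberg adjusted p of 0.359 in the paired limma fit unless given. Of 17 measured apoptosis genes 3 were lower and 0 higher at an unadjusted p under 0.05, beside 8.86% and 5.92% of all named genes, and the count of 3 was 1 without pig 15, 16 or 18. They were BCL2L1, a survival factor of the BCL2 family, at -0.43 ± 0.11 (SE, n = 6 pairs), CYCS, cytochrome c, at -0.43 ± 0.16, and DIABLO, a mitochondrial activator of caspases, at -0.35 ± 0.14. Each was lower in 5 of 6 pigs, with pig 14 the exception at 0.03, 0.06 and 0.06. HSPE1, a mitochondrial chaperonin, was lower in 6 of 6 pigs at -0.31 ± 0.12, and LAMC1, a laminin chain of basement membranes, in 6 of 6 pigs at -0.24 ± 0.08.

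Complement genes split by member. C5, cleaved in the terminal pathway, was lower in 6 of 6 pigs at -0.39 ± 0.13. C4A averaged 1.16 ± 0.46, with -0.82 in pig 14 and 2.96 in pig 18. CD55, a membrane inhibitor of complement, averaged 0.88 ± 0.37. Among lymphocyte genes, CXCL13, a chemokine that draws B cells, was higher in 6 of 6 pigs at 1.16 ± 0.32, and was above background in 4 of 6 normal regions and 5 of 6 border zones. PRDM1, a factor of plasma cells also made elsewhere, was lower in 6 of 6 pigs at -0.31 ± 0.09, and GNLY, granulysin of killer cells, at -0.32 ± 0.09.

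A pair of cell division genes did not follow the usual order of pigs. CCNB2, cyclin B2, was higher in 6 of 6 pigs at 1.17 ± 0.42, with its highest value, 3.39, in pig 11, whose border zone lay near its normal region for most lists. KIF15, a kinesin of the spindle, was higher in 6 of 6 pigs at 0.96 ± 0.23, with 1.88 in pig 10 and 0.36 in pig 16. Both were dim, with KIF15 above background in 1 of 6 normal regions and 3 of 6 border zones and CCNB2 in 2 and 5, and after normexp background correction their means were -0.42 and -0.37.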
